A study of Drosophila melanogaster with 10 samples.

Results

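The genes described are 10 Drosophila genes that stood at or near the top of the array when ordered by the ratio of tubule to whole fly signal. They are CG31097, CG14957, mat (CG13905), nemy (CG8776), Fst (CG9434), CG13311, CG3690, CG31663, CG3014 and CG18095. They were selected on that ratio, the mean of tubule over whole fly signal within pairs, in these same arrays, so their tubule and whole fly signals are given as a description, with no test. Every probe set that the platform annotation gives to 1 of these genes alone was taken, which made 12 of the 13966 probe sets on the array. Of those 13966, 12443 named a single gene, and they covered 10844 genes. A probe set is the group of short probes that reads 1 transcript. nemy and CG31663 had 2 probe sets each, and the other 8 genes had 1. No gene of the 10 was measured in another dissected tissue, so the values show a high ratio to the whole fly and do not show that a transcript is restricted to the tubule.

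Malpighian tubules of 7 day adult Oregon R Drosophila melanogaster, a wild-type strain, were compared with whole flies of the same strain and age, both sexes mixed in each. There were 5 tubule arrays and 5 whole fly arrays, numbered 2 to 6, and the labels name no transgene or treatment. The methods state that tubules and whole flies of an experimental point came from the same culture, so arrays of 1 number are treated as a pair. Each sample pooled many animals, and the whole flies still held their tubules, so the whole fly signal includes tubule RNA.

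The Malpighian tubule is the insect's renal organ, a simple epithelium that lies free in the haemolymph. Its principal cells pump cations with an apical V-ATPase, its stellate cells carry chloride and water, and it also handles organic solutes, toxins and metabolites. Among the 10 genes are those of a secreted lipid-binding protein (mat, materazzi), a cytochrome b561-type transmembrane electron carrier (nemy, no extended memory), a cold-recovery gene (Fst, Frost) and a member of the ecdysteroid kinase-like (EcKL) family (CG31097). EcKL proteins are related to the kinases that phosphorylate ecdysteroids. The other 6 are known here by their CG numbers only, and no role is given for them.

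Signals are MAS 5.0 intensities on a linear scale, which ran from 0.1 to 14003 with an array mean of 99.0 to 99.4 after trimming 2% at each end. All 6 measured principal cell markers and all 5 stellate cell markers were called higher in tubule by limma (adjusted p under 0.05 over all probe sets), while 4 of 4 muscle, 4 of 6 haemocyte, 4 of 5 fat body and 9 of 10 midgut genes were called lower. The fifth fat body gene, Fbp1, was called higher at a ratio of 1.76, though not with RpL32 held constant or without the block for pairs. Tubule array 4 had a midgut marker sum of 542 and array 6 of 2117, against 9361 to 12941 on the other 3 tubule arrays and 21558 to 30288 on whole fly arrays. Over pairs 4 and 6 alone, the mean ratio of the members ran from 18.6 (CG31663, by its CG15360 probe set) to 106 (CG3014). For CG3014 the ratios were 19.9 in pair 4 and 192 in pair 6, the latter on a whole fly signal of 1.3. In pooled RNA, fewer cells of a type and less RNA per cell cannot be told apart.

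mat encodes a lipid-binding protein, released by the tubules, that clears lipids from the haemolymph after stress. Its signal on tubule arrays 2 to 6 was 2539.7, 2109.5, 1947, 3423 and 4108.5. On whole fly arrays 2 to 6 it was 102, 19.8, 46.7, 33.7 and 27.1. The groups lay far apart, the lowest tubule signal being 19.0 times the highest whole fly signal, and whole fly array 2 was the highest of its group. The mean ratio within pairs, called enrichment from here on, was 85.2 ± 51.7 (SD, n = 5 pairs), the third highest of all probe sets.

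Fst was named Frost for its induction when flies recover from cold, and its protein is thought to be secreted. Its tubule signal was 1707, 898, 1966, 2386.5 and 2125 on arrays 2 to 6. Its whole fly signal was 163, 36.3, 54.3, 36.0 and 32.6. Tubule array 3 was the lowest tubule array and whole fly array 2 the highest whole fly array, so the groups came within 5.52-fold of each other. Enrichment was 40.6 ± 24.7 (SD, n = 5).

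nemy encodes a cytochrome b561-type protein, a class that carries electrons across membranes, and was named for its memory phenotype. Its probe sets were made for the older models CG8776 and CG13147, which the study's annotation names and RefSeq now gives as synonyms of nemy. By the CG8776 probe set its tubule signal was 2904, 2582, 2836, 2533 and 2801, and its whole fly signal was 90.8, 116, 128, 80.6 and 110.5. The tubule arrays differed little, with an SD of 0.09 on the log2 scale, and the 5 ratios ran from 22.1 to 32.0. This gave an enrichment of 26.6 ± 4.80 (SD, n = 5). The CG13147 probe set gave 1284.5, 1874, 1653, 1574 and 1632 in tubule against 36.5, 29.1, 14.7, 28.1 and 40.4 in whole fly. The ratios of this probe set ran from 35.2 to 112, and its enrichment was 61.7 ± 30.7 (SD, n = 5). Both probe sets put nemy far higher in tubule, but by mean ratios that placed them 52nd and 6th on the array.

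CG31097, the EcKL gene, had the highest enrichment of all probe sets, 98.9 ± 51.2 (SD, n = 5). Its tubule signal was moderate, at 296, 396, 508, 368.5 and 474. Its whole fly signal was 9.2, 2.8, 3.4, 3.3 and 7.9, all near the bottom of the scale, where the median over all probe sets was 45.2. The ratio was lowest in pair 2 (32.2), which had the lowest tubule and the highest whole fly signal. It was highest in pair 4 (149), which had the highest tubule signal. On the log2 scale CG31097 had an SD of 0.31 in tubule and 0.80 in whole fly. Its probe set was made for the older model CG13665, whose name RefSeq now also gives to the adjacent gene CG31288, so the signal may be that of either or both.

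CG14957 came next, with an enrichment of 95.9 ± 62.5 (SD, n = 5). Its tubule signal was 955, 264.5, 389.5, 966 and 1067, and its whole fly signal was 41.5, 2.0, 10.7, 7.8 and 6.5. Both groups were spread widely, with SDs of 0.92 and 1.57 on the log2 scale. Tubule arrays 3 and 4 were well below the other 3, and the lowest tubule signal was 6.37 times the highest whole fly signal.

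CG13311 and CG3690 had high tubule signals on every array. For CG13311 they were 1592, 1689, 2103, 2059 and 2326, against 135, 39.3, 41.3, 47.8 and 33.8 in whole fly. For CG3690 they were 3023, 2832, 2595, 3276 and 3377, against 95.9, 106, 97.5, 83.7 and 67.4 in whole fly. The whole fly signal of CG13311 was set apart by array 2, while that of CG3690 was even over the 5 arrays. The enrichments were 43.5 ± 20.6 and 34.8 ± 9.97 (SD, n = 5 each).

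CG31663 was read by a pair of probe sets made for the older models CG15359 and CG15360. By the CG15359 probe set its signals were 679, 878, 578, 846 and 749 in tubule and 32.3, 15.6, 17.5, 15.8 and 25.3 in whole fly, for an enrichment of 38.7 ± 15.5 (SD, n = 5). By the CG15360 probe set they were 573, 669.8, 509, 711 and 594 in tubule and 27.1, 36.3, 29.9, 29.4 and 29.5 in whole fly, for an enrichment of 20.2 ± 2.73 (SD, n = 5). The second probe set had the lowest enrichment of the 12 and also the narrowest spread, its ratios lying between 17.0 and 24.2.

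CG3014 and CG18095 had tubule signals that hardly varied and whole fly signals close to 0. For CG3014 the tubule arrays gave 232, 263, 247, 237 and 249, and the whole fly arrays gave 11.9, 23.9, 12.4, 8.5 and 1.3. For CG18095 they gave 229, 231, 209, 221 and 240.4, against 13.1, 4.6, 6.2, 2.5 and 4.9. On the log2 scale the tubule SDs were 0.07 and 0.08, and the whole fly SDs 1.59 and 0.86, so nearly all of the variation in both ratios lay in the whole fly signals. The enrichment of CG18095 was 47.8 ± 26.3 (SD, n = 5).

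**Figure D1:**
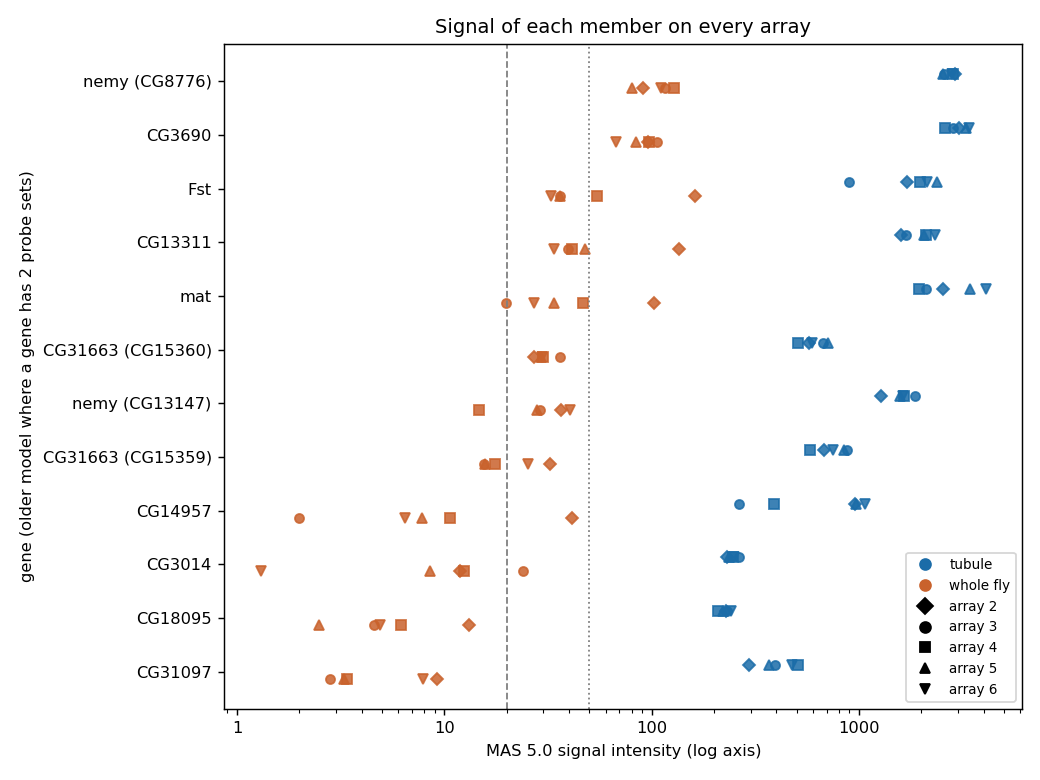
Signal intensity (log axis) of each of the 12 probe sets on the 5 tubule and the 5 whole fly arrays, 1 point per array with a shape for each array number, and grey lines at signals of 20 and 50. Tubule signals lie above whole fly signals for every probe set without overlap, and the whole fly points of CG31097, CG14957, CG18095 and CG3014 lie lowest.

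The choice of the members fixes their direction, and the counts that follow describe the choice. All 12 probe sets were called higher by limma, where 16.8% of all probe sets were called higher and 36.3% lower. The split of all calls, 2342 higher and 5076 lower, was 4148 and 3446 after quantile normalisation and 1451 and 6453 with the ribosomal protein gene RpL32 held constant, as the median log2 ratio over all probe sets moved from -0.32 to 0.18 and -0.66. Enrichment was at least 25 for 11 of the 12, against 0.401% of all probe sets, and at least 10 for all 12, against 1.54%. Tubule and whole fly signals did not overlap for any of the 12, tubule being higher, as for 14.1% of all. For 7 of the 12, every tubule signal was at least 50 and every whole fly signal under 50, which held for 1.54% of all probe sets.

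The members were not simply the 12 highest probe sets. Irk1 (80.6) and Irk3 (80.3), inward rectifier potassium channels, came just below mat by enrichment. For Irk1 this rested on a mean whole fly signal of 2.12. It was 3.00 with signals under 50 set to 50, and a further probe set of Irk1 gave 14.2 ± 3.54. CG14963 (55.4) came between the higher nemy probe set and CG3014. CG33012 (53.7) and Dh31-R (49.9), the receptor of a diuretic hormone, stood between CG3014 and CG18095, on mean whole fly signals of 3.80 and 4.34. With the floor of 50 they were at 1.81 and 4.08, and a further probe set of Dh31-R gave 17.04 ± 4.81 without a floor. At the lower end, the CG15360 probe set of CG31663 was in 85th place.

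CG3014 showed how a single whole fly array can set a mean ratio. Its ratios in pairs 2 to 6 were 19.5, 11.0, 19.9, 27.8 and 192, and pair 6, where the whole fly signal was 1.3, made up 71.0% of their sum. Its enrichment was 54.0 ± 77.3 (SD, n = 5), with an SD larger than the mean. Without pair 6 the enrichment was 19.6, and the gene moved from 9th to 86th place. The median of its 5 ratios was 19.9 and the geometric mean 29.6, while the ratio of the group means was 21.2.

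**Figure D2:**
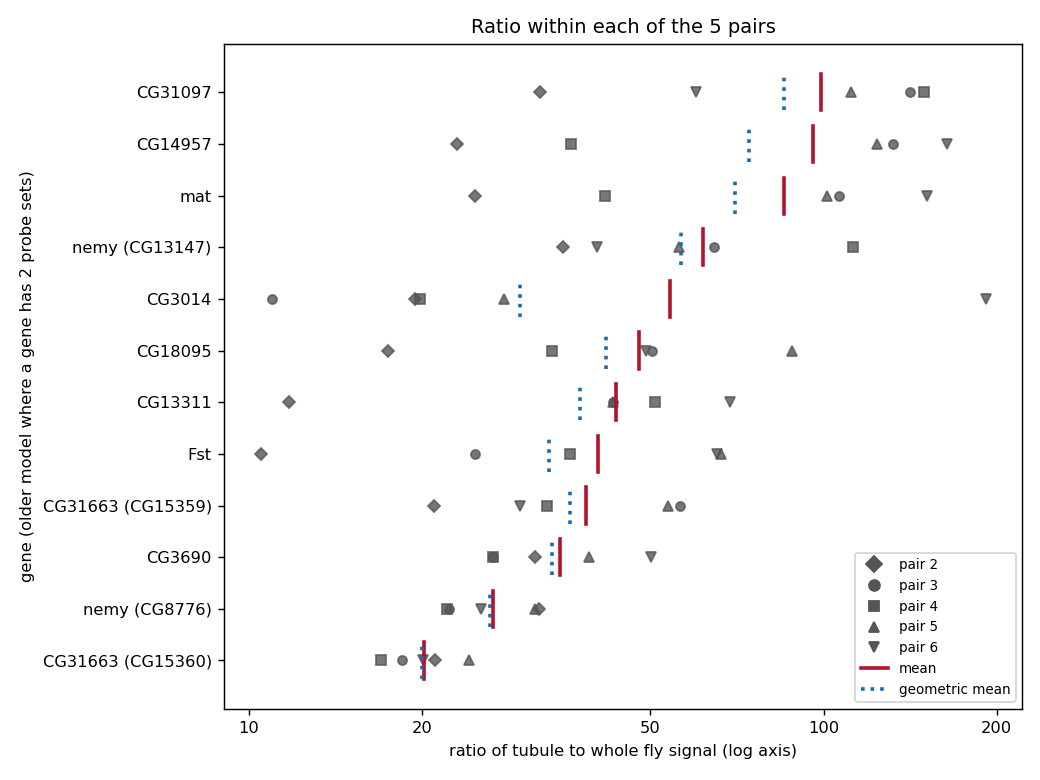
Ratio of tubule to whole fly signal (log axis) in each of the 5 pairs for the 12 probe sets, a shape for each pair, with the mean as a solid and the geometric mean as a dotted bar. The single point of CG3014 at 192 lies far from its other 4, which lie between 11.0 and 27.8, and the ratios of CG31663 (CG15360) and nemy (CG8776) are the most tightly grouped.

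Averaging mattered less for the others. The ratio of the group means was 76.7 for CG31097, 53.2 for CG14957, 61.5 for mat and 36.1 for CG18095, each below the mean of the ratios. For CG3690 it was 33.5 and for nemy (CG8776) 26.0, both close to the mean of the ratios. Geometric means lay between, at 85.4 for CG31097, 74.2 for CG14957 and 70.1 for mat.

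Low whole fly signals are less precise on this array. Over all probe sets, the median SD of the whole fly signal was 0.80 on the log2 scale for the 2527 with a mean whole fly signal under 10, and 0.23 for the 3128 with a mean from 100 to 500. Among the former, the highest whole fly array was at the median 3.92 times the lowest. CG31097 and CG18095 lay in that lowest class, with SDs of 0.80 and 0.86. CG14957 and CG3014 lay in the class from 10 to 20, with SDs of 1.57 and 1.59 against a class median of 0.62. At higher signals, mat had 0.91 against 0.35 for its class, and Fst 0.96 and CG13311 0.80 against 0.28. CG3690 (0.26 against 0.28) and the CG15360 probe set of CG31663 (0.16 against 0.35) lay below theirs. What widened the spread beyond the class was not tested. On the log2 scale, the SD of the whole fly signal exceeded that of the tubule signal for 11 of the 12 probe sets. The exception was the CG15360 probe set of CG31663. The members were chosen for whole fly signals far below their tubule signals, and lower signals spread more on this scale, so the choice favours that count.

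The order of the members therefore depended on how low whole fly signals were treated. When every signal under 50 was set to 50, CG31097 fell from 1st to 170th place with an enrichment of 8.17, and CG14957 from 2nd to 78th with 14.6. CG18095 went to 318th place with 4.52 and CG3014 to 293rd with 4.91. By contrast, mat kept the third place with 51.3, CG3690 rose from 23rd to 8th with an unchanged 34.8, and CG13311 rose from 14th to 7th with 35.1.

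A floor of 20 moved some of them already. At that floor mat led the array with 85.03, nemy (CG13147) was 3rd with 55.7, CG13311 5th with 43.5 and Fst 7th with 40.6. CG14957 was 21st with 31.5, below CG3690 (12th with 34.8) and above nemy (CG8776, 39th with 26.6). CG31097 was 62nd with 20.4, CG3014 133rd with 11.8 and CG18095 138th with 11.3. At a floor of 100, CG3690 was 6th with 29.9, mat 10th with 28.1 and nemy (CG8776) 19th with 24.8. CG3014 and CG18095 were then at 2.46 and 2.26, in 541st and 606th place.

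**Figure D3:**
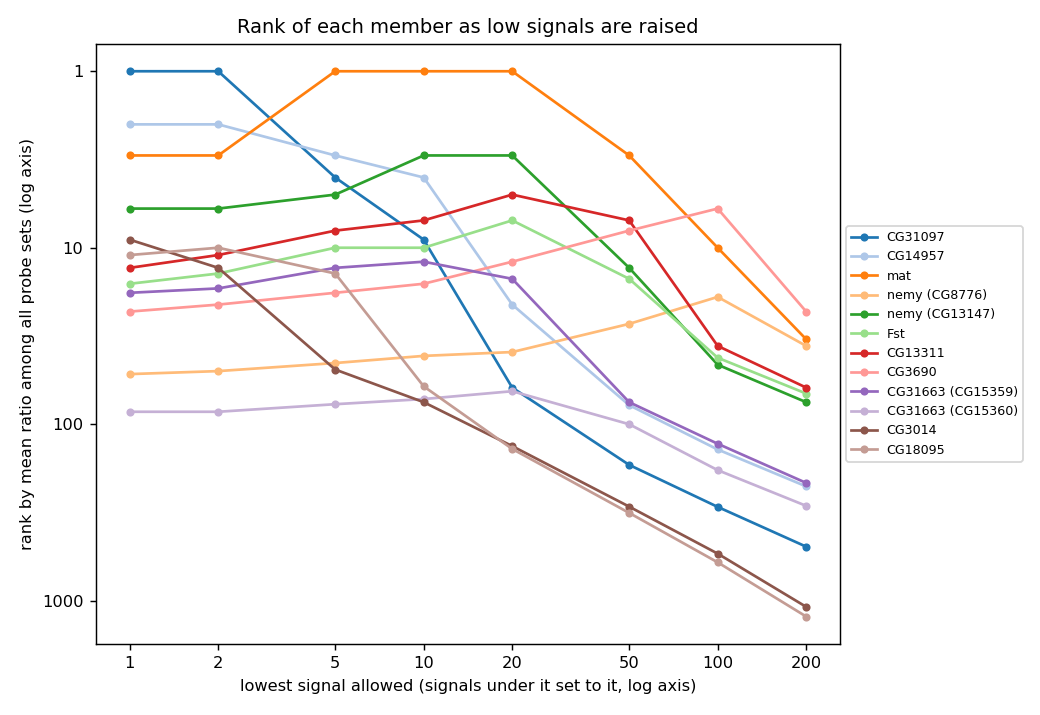
Place of each of the 12 probe sets in the order of all 13966 by enrichment (log axis), against the floor to which lower signals were set. CG31097, CG14957, CG18095 and CG3014 move down as the floor rises from 5, while CG3690 and nemy (CG8776) move up to a floor of 100. Both probe sets of CG31663 move down as the floor rises from 20.

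Whole fly array 2 differed from the others for part of the members. It was the highest whole fly array for 7 of the 12 probe sets, against 21.3% of all probe sets. For 3 of the 12 (CG14957, Fst and CG13311) its gap to the next array took more than 0.71 of the group's range, the 95% limit of Dixon for 5 values, which held for 2.74% of all probe sets and for 23 of the 215 at 10-fold or more (10.7%). Over the mean of the other 4 whole fly arrays, array 2 was 6.15-fold higher for CG14957, 4.09-fold for Fst, 3.34-fold for CG13311 and 3.22-fold for mat. The median over the 158 probe sets at 10-fold or more with a mean whole fly signal of at least 20 was 1.34-fold, and over all 9794 with such a signal 0.92-fold. Array 2 was 1.08-fold for CG3690 and 0.835-fold for nemy (CG8776), so the difference did not touch every member.

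Accordingly, pair 2 gave the lowest ratio for 8 of the 12 probe sets, against 21.1% of all and 53.5% of the 215 with an enrichment of at least 10. Without pair 2 the enrichment was 114 for CG14957, 100.4 for mat, 51.4 for CG13311 and 48.1 for Fst. Other genes moved on the same array: Lsp2, a larval serum protein gene of the fat body, had a whole fly signal of 1034 on array 2 and 172 to 224 on the others. The summed signal of the 5 fat body markers was 3441 on whole fly array 2 and 1836 to 2193 on the rest, and without Lsp2 it was 2406 against 1663 to 1989. Among those 4 markers, Fbp1 was lower on array 2, at 0.742 of the mean of the other arrays. In tubule the sum over all 5 was 330 to 387. Fat body was not the only list with its highest sum on whole fly array 2. The sums of the principal cell, haemocyte, JNK and wounding, and peptide amidation lists were highest there as well, for haemocytes at 613 against 446 to 534. Those of the muscle and heat shock lists were lowest there, and those of the midgut and stellate cell lists lay within the range of the others. The part of any of these genes in the signals of the 4 members was not tested.

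**Figure D4:**
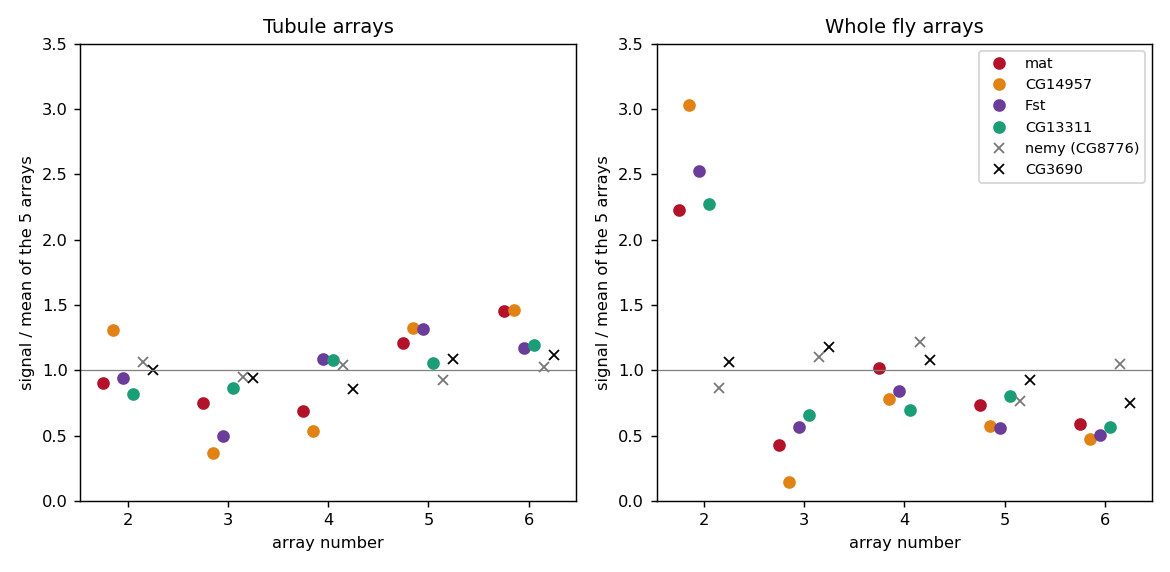
Signal of 6 genes on each array divided by the mean of its 5 arrays, for tubule (left) and whole fly (right), points shifted sideways for legibility. On whole fly array 2, mat, CG14957, Fst and CG13311 lie between 2.2 and 3.1 times their mean, while nemy (CG8776) and CG3690, drawn as crosses, stay near 1.

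mat and CG14957 shared the order of their arrays in whole fly. From low to high both ran through whole fly arrays 3, 6, 5, 4 and 2, an order that mat shared with 94 of the 13965 other probe sets (0.673%), CG14957 among them, and with 9 of the 214 others at 10-fold or more (4.21%). They also had the same order of within-pair ratios, 2, 4, 5, 3 and 6. mat shared it with 132 of the 13965 others (0.945%), and with 9 of the 214 at 10-fold or more (4.21%). In tubule, mat ran through arrays 4, 3, 2, 5 and 6. It shared this order with 156 of the 13965 others (1.12%), CG3690 among them, and with 3 of the 214 at 10-fold or more (1.40%). With 5 arrays the possible orders are few, so such matches also arise by chance, and no result about the members is read from them. Of the 4 measured genes on a list for JNK signalling and wounding, Jra, the Drosophila Jun, had that order in tubule, while puc, kay and Gadd45 had others. By limma 3 of the 4 (puc, Jra and Gadd45) were called higher in tubule, and of 5 measured heat shock genes 2 were called higher (DnaJ-1, 3.14, and stv, 2.52) and 1 lower (Hsp27, 0.466), where 16.8% of all probe sets were called higher and 36.3% lower. Whether the level of mat moves with these genes was not tested.

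CG31097 lies within a cluster of EcKL genes on chromosome arm 3R. The family list was added after the values of its neighbours had been seen, and transcripts of paralogs may hybridise to each other's probes. Of 38 other EcKL genes measured, 23 (60.5%) were called higher in tubule by limma, 8 (21.1%) lower and 7 neither way. The number called lower was 2 when signals under 50 were set to 50. That floor also reduced the lower calls over all probe sets from 5076 to 2453. Without a floor, 16.5% of all single genes were called higher and 40.3% lower. The median enrichment of the 38 was 4.00, against 0.815 over all single genes.

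Of the 38, 10 had an enrichment of at least 10, from 12.02 to 45.5, against 171 of all 10844 single genes. The highest, CG11891, rested on a mean whole fly signal of 2.12 and was at 1.23 with signals under 50 set to 50. The next highest was 23.9. For 8 of these 10, every whole fly signal was at least 50. They included CG10553 (23.9 ± 5.80), CG9498 (18.6 ± 6.40), CG10513 (18.2 ± 5.10) and CG11878 (18.2 ± 4.69). CG31097 was chosen on the mean ratio and had the highest of all probe sets, so none of the 38 could exceed it. With signals under 50 set to 50, 10 of the 38 exceeded it, with values from 8.41 (JhI-26) to 23.9 (CG10553), against 8.17 for CG31097.

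The family was not uniform in the run of neighbours around CG31097. Among 19 other measured genes of a run of 26 EcKL genes in chromosome order, 13 were called higher, 4 lower and 2 neither way, with a median enrichment of 4.55. CG31098, near CG31097, had 2.33 ± 0.31 and CG13659, also close by, 5.79 ± 3.27. CG10550 (0.342) and CG31099 (0.391), further along, were called lower, the latter not after quantile normalisation. CHKov1, a gene of the run known for its disruption by a transposon in flies resistant to sigma virus, had 1.01 ± 0.14 and was not called, though after quantile normalisation it was called higher.

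**Figure D5:**
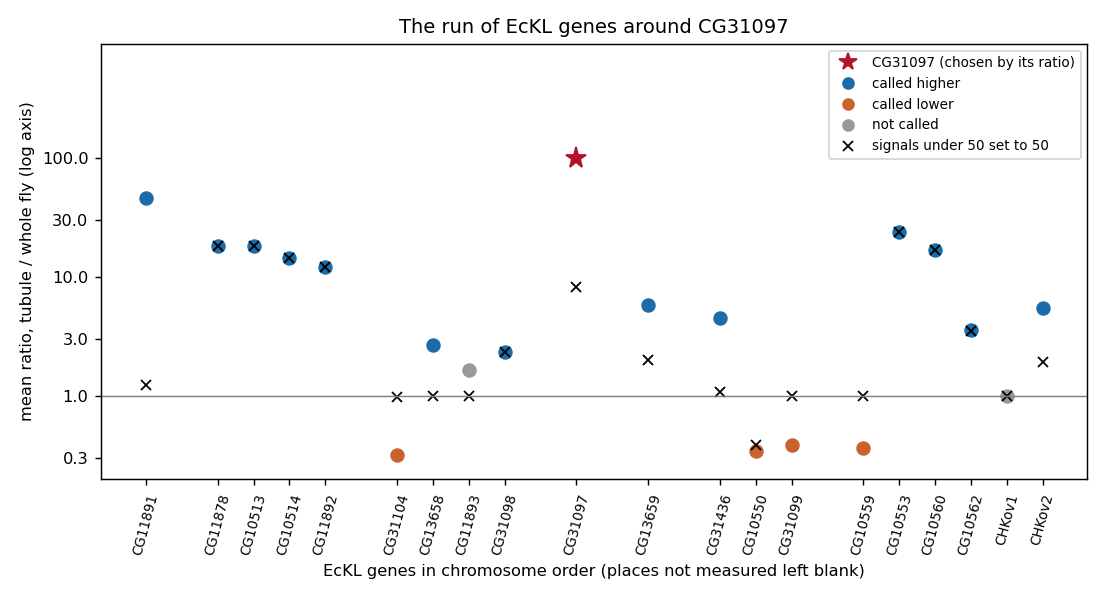
Enrichment (log axis) of the measured EcKL genes in the run around CG31097, in chromosome order, coloured by the limma call, with crosses for the value after signals under 50 were set to 50. Without the floor CG31097, chosen on this ratio, stands highest at 98.9, and with it CG10553 at 23.9 does.

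Most nearby genes measured were below 10-fold, as were most genes on the array. Of the 60 protein-coding genes within 3 places of a member, 46 were measured, of which 10 (21.7%) were called higher and 11 (23.9%) lower (18 with RpL32 held constant), with a median enrichment of 0.925. Over all single genes 16.5% were called higher and 40.3% lower, with a median of 0.815. With RpL32 held constant, the lower calls over all probe sets rose as well, from 5076 to 6453. The counts of nearby genes hold the EcKL neighbours of CG31097 as well. Among these 46, CG3699, next to CG3690, and CG18268, next to CG3014, reached 10-fold. That made 2 of 46, where 171 of all 10844 single genes reached 10-fold. Within 5 places CG14963, near CG14957, did as well, at 55.4 ± 16.3, and it stood 2nd on the array with the floor of 50, at 55.1.

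CG3699 measured 2562 ± 315 in tubule and 199.6 ± 132 in whole fly (signal, SD, n = 5 each), with an enrichment of 15.9 ± 6.34 (limma, called higher). CG18268 had 541 ± 100.4 in tubule and 26.9 ± 3.04 in whole fly, for 20.03 ± 2.43, also called higher. On the other side of CG3014, CG10086 had an enrichment of 8.56 ± 0.88 and CG2641 of 2.24 ± 0.53, and both were called higher. The genes called lower beside the members included bgm, a very long chain acyl-CoA synthetase gene near CG18095, at 0.188 ± 0.03, and c-cup near CG31663, at 0.163 ± 0.16.

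A list of 6 genes of other cytochrome b561 proteins and of peptide amidation, the process to which nemy has been tied, was also read. nemy was chosen for its high ratio, so that choice all but fixed that the list would lie below it. CG1275 (2.60), CG13078 (1.41) and Phm (1.27), which encodes the hydroxylase of peptide amidation, were called higher in tubule by limma, but CG13078 and Phm were not with RpL32 held constant. CG13077 (0.44) and Pal2 (0.13), a lyase of the same process, were called lower, and Pal1 (1.32) was not called, though it was called higher after quantile normalisation. The median enrichment over the list was 1.30, against 0.815 over all single genes.

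For each gene, the probe set whose log2 signals over the 10 arrays followed it most closely was found, with signals under 20 set to 20. The coefficients, taken among 10330 probe sets, include the step between tubule and whole fly that all 10 genes share. nemy was closest to CG15406 (r = 0.9994), CG18095 to CG3285 (0.9992) and CG3014 to CG2187 (0.9992). CG31097 and CG31663 were closest to kumpel (0.9986 and 0.9969, by different probe sets), CG3690 to egr, the Drosophila TNF (0.9984), and CG13311 to Gp150 (0.9982). mat was closest to LRR (0.9986), Fst to CG9360 (0.9959) and CG14957 to GEFmeso (0.9905).

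The genes closest to mat, Fst, CG13311 and CG14957 had far lower enrichments, of 3.96 (LRR), 2.78 (CG9360), 2.47 (Gp150) and 3.31 (GEFmeso). The gene closest to nemy, CG15406, had 34.5. That closest to CG18095, CG3285, had 33.04, against 11.3 for CG18095 at the floor of 20 used for this comparison. All 5 whole fly values of CG18095 and of CG31097 were the floor itself, so their coefficients held no whole fly variation of these genes. So were 4 of 5 for CG14957 and for CG3014, 3 for CG31663 (CG15359) and 1 for mat. The 5 probe sets closest to the mean profile of the 10 genes were those of CG18473, Zip71B (a zinc transporter), CG42324, CG8132 and CG33282, with enrichments of 27.4, 29.0, 6.48, 5.92 and 24.98.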

How the data were processed

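Total RNA of 5 tubule and 5 whole fly samples was hybridised to the Affymetrix Drosophila genome array. The authors deposited MAS 5.0 signal intensities. That program subtracts background, summarises the probes of a set and scales each array linearly. The files gave no detection calls, and no further normalisation was applied. The first pair of arrays is not among those analysed here. Probe sets were named from the platform annotation and symbols updated by a RefSeq gene table (Release 6 plus ISO1 MT), from which neighbours were also taken.

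The 5 ratios within pairs were averaged to give enrichment. The limma package (3.58.1, under R 4.3.3) was run on log2 intensities, by lmFit with pair as a block and eBayes with a variance trend, with Benjamini-Hochberg adjustment over 13966 probe sets and calls at an adjusted p under 0.05. The fit was tested on simulated data. A probe set was taken for each gene by its highest mean signal. The pairing rests on the methods' statement of shared cultures: deviations of same-numbered arrays correlated at 0.003, 0.085, -0.089, -0.006 and 0.091 over 6125 probe sets. A limma p-value sets the difference between tubule and whole fly against the variation that remains between these pooled samples after pairing. Its variance estimate borrows from all probe sets, and the number of arrays limits its precision. The spread between single animals was not measured. The members, the lists and the tests were chosen with earlier results of these data known. The rule for named genes took every member, called neighbours within 3 places, the closest probe set of each member with 5 for the mean profile, and list genes. Genes named from the order by ratio and from the EcKL family were chosen after their values were seen. Alternatives were floors on low signals, an added constant of 16, other means, quantile normalisation, scaling to RpL32, a minimum mean signal, the methods' t-test, no block, and each pair left out.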

Additional observations from a re-analysis of the deposited data

Results flagged for a closer look

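Of 36 sets of 5 values looked at for the 12 probe sets (tubule signals, whole fly signals and ratios), 4 held a value set apart from the others by more than 0.71 of the range, and chance does this for about 1 set in 20. Over all probe sets it held for 9.23% of tubule signals, 8.54% of whole fly signals and 12.6% of within-pair ratios, so 4 of 36 is near that background. The whole fly signal of array 2 was 41.5 for CG14957, 163 for Fst and 135 for CG13311, each the highest of its 5. The ratio of CG3014 in pair 6 was 192, where the whole fly signal was 1.3.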

How the results depend on the processing

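The median enrichment of the 12 probe sets was 45.6. It was 20.8 with signals under 50 set to 50, 11.7 with those under 100 set to 100, and 25.3 with 16 added to every signal, while leaving out a pair gave 39.1 to 53.4. Of the 12, 10 were among the 50 highest by enrichment. This number was 6 at either floor, of 50 or of 100, and 10 to 11 without a pair. Over all probe sets 56 reached 25-fold. They were 30 and 17 at the floors of 50 and 100, 20 with 16 added, 31 with RpL32 held constant, 71 after quantile normalisation, and 49 to 64 without a pair.

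Without the block for pairs limma called 2491 probe sets higher and 5247 lower, against 2342 and 5076 with it, and the ratio of group means gave a median enrichment of 34.3. The replicate block left the counts of neighbours and EcKL genes within 1.5 times of those without it. Calls over all probe sets went to 4148 higher after quantile normalisation and to 1451 higher with RpL32 held constant. Lower calls went to 2642 where the mean signal had to reach 50, and to 2453 with signals under 50 set to 50. Leaving out a pair gave 1962 to 2222 higher and 4457 to 4877 lower.

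Of the neighbours, 10 were called higher and 11 lower. Within 5 places these were 18 and 23. Those called lower were 7 at a mean signal of at least 50, 5 at the floor of 50 and 18 with RpL32 held constant, and leaving out a pair gave 9 to 10 higher and 9 to 11 lower. Of the EcKL genes other than CG31097, 8 were called lower, and 3, 2 and 5 with the mean signal of at least 50, the floor of 50 and the methods' t-test after Benjamini-Hochberg adjustment. Leaving out a pair gave 7 to 9 lower and 22 to 23 higher. The alternatives for EcKL genes and the pairs 4 and 6 alone were chosen after the data had been seen. For CG3014 the SD over the pairs exceeds the mean, so no fall can pass it. Of 176 values of the other 11 probe sets under the alternatives, 152 moved by less than 1 SD over the pairs and 24 by more. The SD is each probe set's own, so a wide spread hides large moves and the counts do not measure stability. CG14957 stayed within its SD of 62.5 on falling from 95.9 to 53.2 by the ratio of group means. The CG15360 probe set of CG31663 passed its SD of 2.73 on rising from 20.2 to 24.3 after quantile normalisation. The causes were not tested, except that a floor lowers by construction any ratio whose whole fly signal lies under it.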
